A study of Haemaphysalis flava with 2 samples.

Results

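Hemelipoglycoproteins and vitellogenins of the hard tick Haemaphysalis flava were followed in its midgut at 2 states of the blood meal. The members are the unigenes (assembled transcripts or fragments of them) whose protein description in the Nr or the UniProt annotation names a hemelipoglycoprotein, a heme lipoprotein or a vitellogenin. Descriptions that contain the word receptor were left out. The rule found 27 of the 65535 unigenes in the expression table, and it used no expression value. Midguts of fully engorged ticks (FE), which had finished feeding, were set against midguts of partially engorged ticks (PE), which had not. Polyadenylated RNA gave 1 library per state. Of 60 midguts dissected, 30 were from each state, and the number pooled for RNA is unknown here. No difference below therefore has a replicate check, none was tested, and variation between ticks is unknown. Library totals implied by the files were 41432770 reads in FE and 50397332 reads in PE.

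Both kinds of protein belong to the large lipid transfer proteins of arthropods. Vitellogenin is the precursor of the yolk protein vitellin, and in ticks it is made in the fat body and the midgut and taken up by the oocytes. Hemelipoglycoprotein, also called the carrier protein, is the abundant heme and lipid carrier of tick hemolymph in both sexes. Ticks depend on heme from the host's blood, and both proteins bind heme. The names overlap in databases, because the proteins are related by sequence.

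The overlap of names was visible here. Of the 27 members 18 had an Nr description of a hemelipoglycoprotein or heme lipoprotein, and 17 of these 18 had a UniProt hit named vitellogenin. The Nr description was vitellogenin for 1 member only, Contig6575. A further 5 had an Nr hit described as a hypothetical protein and 3 had no Nr hit, so these 8 entered by their UniProt name alone. Members were grouped by UniProt name, with putative forms and both spellings merged: 8 unigenes of Vitellogenin-1, 5 of Vitellogenin-B, 9 of Vitellogenin-2, 2 of Vitellogenin-3, 2 of Hemelipoglycoprotein and 1 of Vitellogenin with no number. The hit was a protein of the related tick Haemaphysalis longicornis for 21 members. A gene ontology term for lipid transporter activity, which the rule did not use, was attached to all 27. Whether the term came from the same protein hits is unknown here, so it is no independent check of the names.

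The members split by name. Most Vitellogenin-1 and Vitellogenin-B unigenes were abundant and lower in FE, and most Vitellogenin-2 and both Vitellogenin-3 unigenes were scarcer and higher in FE. Levels are in RPKM (reads scaled to unigene length and library size), as the authors deposited them. The rule of size called a unigene higher or lower in FE when log2((FE RPKM + 1)/(PE RPKM + 1)) was at least 1 or at most -1 and the 95% counting interval of the ratio excluded 1. Only the 23 members that reached 1 RPKM in a library were read this way. Of these 23, 11 were lower, 9 higher and 3 neither. Among the 9, Contig3949, Contig14540, Contig65376 and both Vitellogenin-3 unigenes reached 1 RPKM only in FE. Their calls are a description and do not count as support for the split by name. Over all 44982 unigenes that reached 1 RPKM, 11.1% were called lower and 25.7% higher, 36.8% in either direction. The median log2 ratio was -0.97 over the 23 members, against 0.36 over all unigenes.

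**Figure D1:**
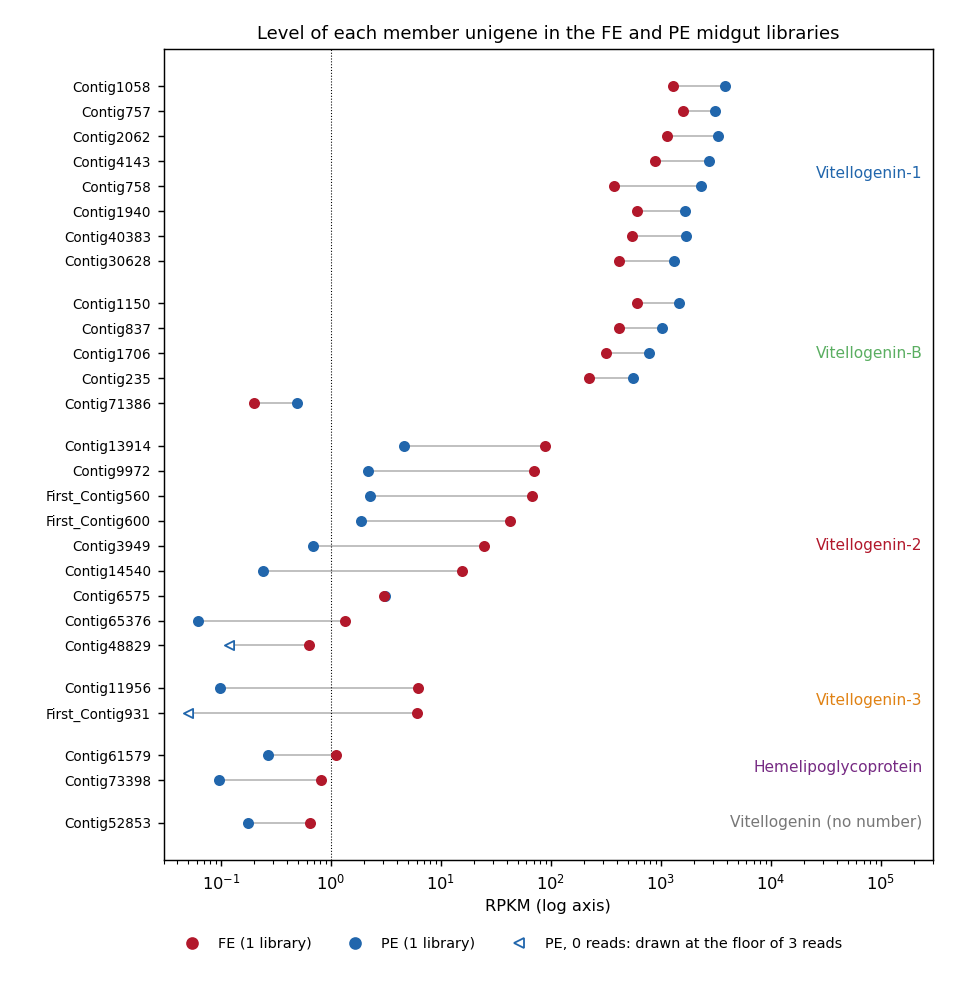
RPKM (log axis) of each of the 27 member unigenes in the FE library (red) and the PE library (blue), grouped by UniProt name; open triangles mark 0 reads in PE, drawn at the floor of 3 reads, and the dotted line is 1 RPKM. The 8 Vitellogenin-1 unigenes lie between 376 and 1601 RPKM in FE and between 1324 and 3808 RPKM in PE, whereas no Vitellogenin-2 or Vitellogenin-3 unigene exceeds 88.2 RPKM in FE or 4.63 RPKM in PE.

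Vitellogenin-1 held most of the RNA of these proteins. Its 8 unigenes summed to 6873 RPKM in FE and 19983 RPKM in PE, which was 78.4% of the members' summed RPKM in FE and 83.8% in PE. They took 0.502% of the reads of the FE library (exact 95% interval 0.500 to 0.504) and 1.47% of those of the PE library (1.466 to 1.473). By RPKM they ranked between 29 and 227 among all unigenes in FE, and between 25 and 65 in PE. By the rule 7 of the 8 were lower in FE and the other was just short of it.

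Contig1058, the member with the highest mean level, had 83524 reads and 1286 RPKM in FE, against 300915 reads and 3808 RPKM in PE. The ratio of FE over PE was 0.338 (95% counting interval 0.335 to 0.340). Contig2062 had 1145 RPKM in FE and 3314 RPKM in PE, a ratio of 0.345 (0.341 to 0.350). These were the most abundant fragments of the group whose ratio passed the rule.

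Contig4143 matches the start of the protein and had 888 RPKM in FE and 2723 RPKM in PE, a ratio of 0.326 (0.322 to 0.330). The level was 612 RPKM in FE and 1675 RPKM in PE for Contig1940, a ratio of 0.365 (0.358 to 0.373). For Contig40383 it was 549 RPKM in FE and 1678 RPKM in PE, a ratio of 0.327 (0.320 to 0.334). All 3 were lower in FE by a similar factor, although their levels differed.

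Contig30628 was the scarcest in PE, with 417 RPKM in FE and 1324 RPKM in PE and a ratio of 0.315 (0.306 to 0.325). Leaving out 2 unigenes described next, the 6 fragments had ratios from 0.315 to 0.365, and their pooled reads gave 0.337 (0.335 to 0.339). Some of their counting intervals do not overlap, so small differences between fragments exceed the counting error.

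Contig757 and Contig758 match the same stretch of Vitellogenin-1 and gave the 2 extreme ratios of the group. Their hits cover residues 1143 to 1315 and 1154 to 1331 of the protein, with 162 residues in common, at 93.6% and 93.3% identity. Contig757 had 1601 RPKM in FE and 3142 RPKM in PE, a ratio of 0.510 (0.503 to 0.516) and a log2 ratio of -0.97, so it was called neither. Contig758 had 376 RPKM in FE and 2319 RPKM in PE, a ratio of 0.162 (0.158 to 0.166). No source used here says how reads were divided between such near copies, so either ratio alone is uncertain. Their summed reads, 42823 in FE and 144850 in PE, gave a ratio of 0.360 (0.356 to 0.364), within the range of the other 6 fragments.

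Several unigenes of a group matched the same protein, so they may be pieces of 1 transcript or come from related genes. For Vitellogenin-1 of Haemaphysalis longicornis, 7 unigenes covered 1034 of 1694 residues (61.04%). Only 172 residues were covered more than once, 162 of them by Contig757 and Contig758. The eighth unigene, Contig2062, had its hit in Amblyomma triste. A count of 7 lower unigenes is therefore not known to be 7 independent observations. Identity to the matched protein was 65.5% for Contig1940 and 93.6% for Contig757, so more than 1 gene may be represented.

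**Figure D2:**
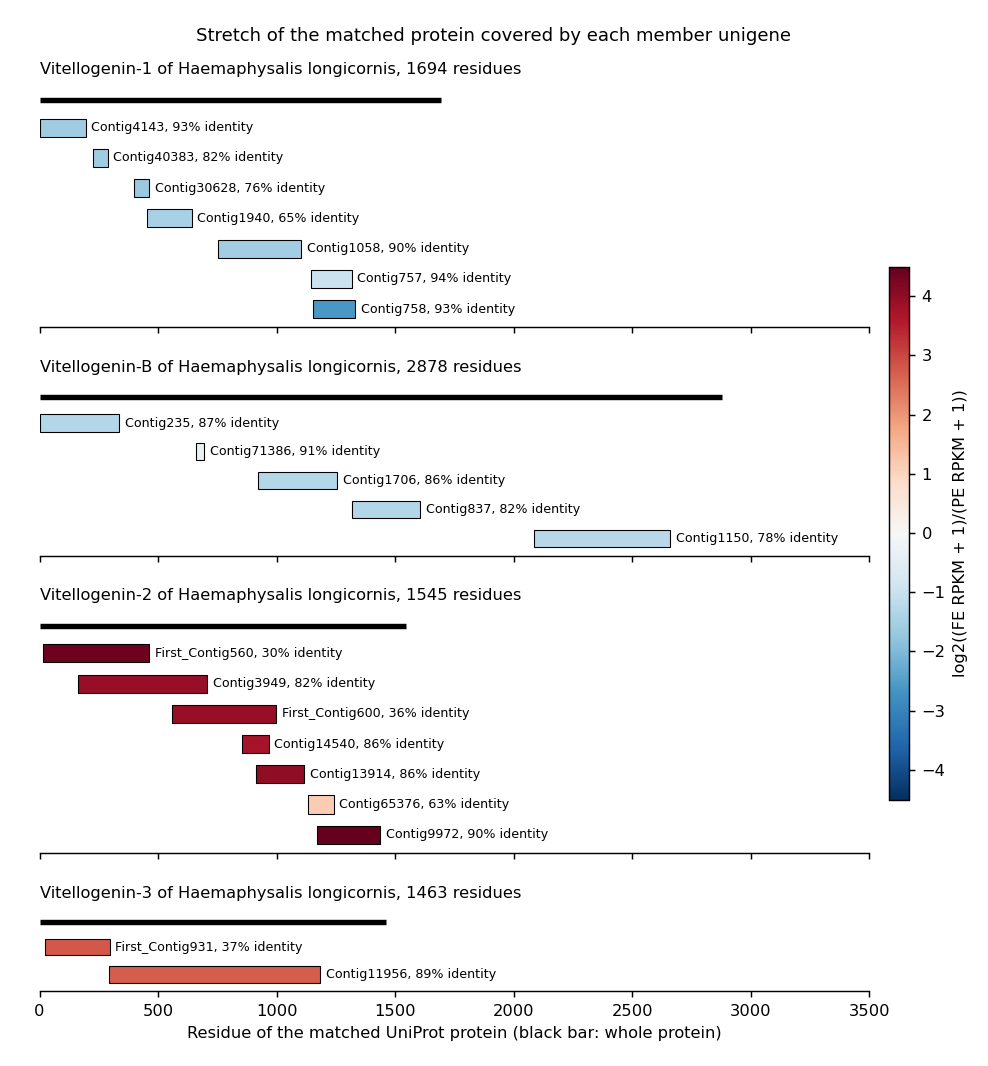
Residues (x axis) of 4 vitellogenins of Haemaphysalis longicornis (black bars, whole protein) that each member unigene matched (coloured bars), coloured by log2((FE RPKM + 1)/(PE RPKM + 1)), with the identity of the match. The pieces of Vitellogenin-1 and Vitellogenin-B are all at or below 0 and those of Vitellogenin-2 and Vitellogenin-3 all above it; Contig757 and Contig758 lie over each other and have the most different values of their protein.

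Vitellogenin-B unigenes were the second abundant group and were also lower in FE. The 5 unigenes summed to 1567 RPKM in FE and 3843 RPKM in PE, and 4 of them carried nearly all of it. Contig1150 had 612 RPKM in FE and 1468 RPKM in PE, a ratio of 0.417 (0.413 to 0.421). Contig837 had 418 RPKM in FE and 1034 RPKM in PE, a ratio of 0.404 (0.399 to 0.409).

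Contig1706 had 315 RPKM in FE and 787 RPKM in PE, a ratio of 0.401 (0.395 to 0.407), and Contig235 had 221 RPKM in FE and 554 RPKM in PE, a ratio of 0.399 (0.393 to 0.406). The intervals of Contig837, Contig1706 and Contig235 overlap, and that of Contig1150 lies above them. All 4 were called lower, with log2 ratios between -1.32 and -1.26. Together the group covered 1557 of the 2878 residues of the matched protein with no overlap, so the 4 may be pieces of 1 transcript. None of the 5 had an informative Nr description, and the fifth, Contig71386, had 4 reads in FE and 12 in PE and did not reach 1 RPKM.

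The pooled ratio was 0.408 for Vitellogenin-B (0.405 to 0.410) and 0.341 for Vitellogenin-1 (0.340 to 0.343), so both were lower in FE by a similar but not an identical factor as far as counting error goes. Among the 1018 unigenes whose mean reached 100 RPKM, 28.0% were called lower and 15.7% higher (43.7% in either direction), and their median log2 ratio was -0.10. The median was -1.59 over the 8 Vitellogenin-1 unigenes and -1.31 over the 4 Vitellogenin-B unigenes that passed the filter. In such bulk samples fewer cells of a type and less RNA per cell cannot be told apart.

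**Figure D3:**
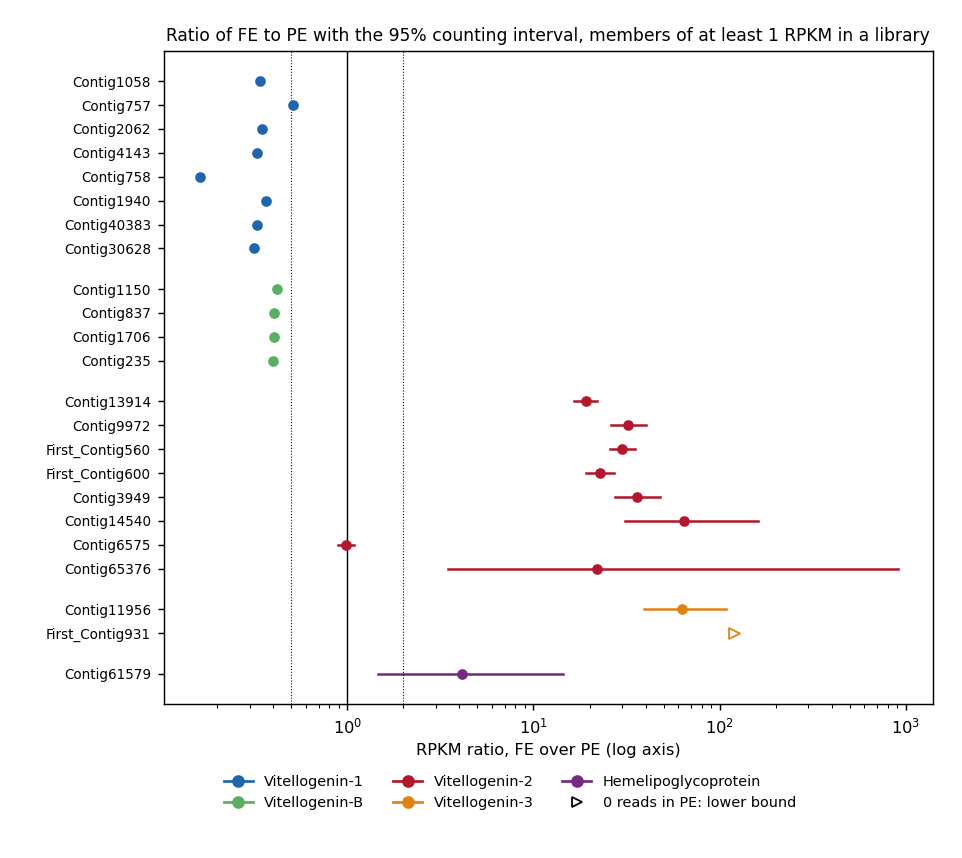
RPKM ratio of FE over PE (log axis) with the 95% counting interval (line) for the 23 members that reached 1 RPKM in a library, coloured by UniProt name; the dotted lines mark 2-fold and the open arrow is a lower bound where PE had 0 reads. Vitellogenin-1 and Vitellogenin-B lie between 0.162 and 0.510. The 6 Vitellogenin-2 unigenes that reached 10 RPKM lie between 19.0 and 64.5. They reached it only in FE, so their range is a description. Contig6575, of the same group, lies at 0.984.

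Vitellogenin-2 unigenes went the other way. Of the 8 that reached 1 RPKM, 7 were higher in FE and none lower, with a median log2 ratio of 3.93. The 9 unigenes of the group summed to 314 RPKM in FE and 15.0 RPKM in PE. Contig3949, Contig14540 and Contig65376 passed the filter only through FE, so the count and the median are a description and are read no further. Even in FE the summed level stayed far under that of Vitellogenin-1.

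Contig13914 had the highest level of the group, with 3272 reads and 88.2 RPKM in FE against 209 reads and 4.63 RPKM in PE, a ratio of 19.0 (16.6 to 22.01). Contig9972 had 2331 reads and 70.6 RPKM in FE, against 88 reads and 2.19 RPKM in PE, a ratio of 32.2 (26.04 to 40.3). Contig3949 had 24.8 RPKM in FE and 0.692 RPKM in PE, a ratio of 35.9 (27.6 to 47.6). These 3 unigenes match Vitellogenin-2 of Haemaphysalis longicornis at 86.5%, 90.2% and 82.0% identity, in stretches that do not overlap.

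Contig14540, at 86.5% identity, had 371 reads and 15.7 RPKM in FE, against 7 reads and 0.243 RPKM in PE. Its ratio of 64.5 has a wide interval (31.0 to 161) because of the 7 reads. It shares 51 residues of the matched protein with Contig13914, and its interval lies above that of Contig13914.

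First_Contig560 and First_Contig600 match the same protein at only 29.5% and 36.3% identity, so they are more distant relatives. First_Contig560 had 67.4 RPKM in FE and 2.25 RPKM in PE, a ratio of 30.0 (25.6 to 35.2). First_Contig600 had 42.5 RPKM in FE and 1.87 RPKM in PE, a ratio of 22.7 (19.1 to 27.2). Both overlap closer matches in the protein, First_Contig560 with Contig3949 over 298 residues and First_Contig600 with Contig14540 over 111. Both distant relatives reached 1 RPKM in both libraries, as did the close matches Contig13914 and Contig9972. The ratio was 19.0 for Contig13914 and 32.2 for Contig9972. Contig3949 and Contig14540 reached 1 RPKM only in FE, so their ratios are a description and are not compared with those of the distant relatives.

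Contig6575 stood apart within the group. It is 6098 nucleotides long and its hit, a vitellogenin 2 of Amblyomma hebraeum, is covered over all of its 1926 residues at 70.7% identity. It had 770 reads and 3.05 RPKM in FE, against 952 reads and 3.10 RPKM in PE, a ratio of 0.984 (0.894 to 1.08). This was the member with the vitellogenin description in both annotations, and its level was low in both libraries and differed by less than the counting error. Without it the summed ratio of Vitellogenin-2 was 26.1, against 20.9 with it.

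Contig65376 was at the edge of detection, with 18 reads in FE and 1 read in PE, and a ratio of 21.9 (3.46 to 912). Contig48829 had 13 reads in FE and 0 in PE, which did not reach 1 RPKM. Against a floor of 3 reads in PE it was at least 5.27-fold higher in FE.

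Vitellogenin-3 was nearly undetected in PE. Its 2 unigenes also passed the filter only through FE. Contig11956, 3413 nucleotides long and 89.3% identical to the matched protein, had 880 reads and 6.22 RPKM in FE, against 17 reads and 0.0988 RPKM in PE. The ratio was 63.0 (39.1 to 109). First_Contig931, at 36.6% identity, had 294 reads and 5.998 RPKM in FE and 0 reads in PE, at least 119-fold higher in FE against a floor of 3 reads in PE. On the log2(RPKM + 1) scale the median of the 2 was 2.76, or 2.73 with the unigene at 0 set to its floor. Both were called higher by the rule of size, but in the authors' deposited table neither reached a false discovery rate of 0.05, with values of 0.289 for Contig11956 and 0.458 for First_Contig931. Which test gave these values is not stated in the labels or headers.

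By the authors' deposited table, a total of 18 of the 23 members had a false discovery rate of at most 0.05. They were all 8 of Vitellogenin-1, all 4 of Vitellogenin-B and 6 of the 8 of Vitellogenin-2. Over all unigenes that reached 1 RPKM, 11.6% had one. The authors' deposited table gives its ratio as PE over FE, for example 2.96 for Contig1058 and 0.0310 for Contig9972.

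The unigenes whose UniProt name is Hemelipoglycoprotein itself, matched to Dermacentor variabilis, were rare. Contig61579 had 17 reads in FE and 5 in PE, a ratio of 4.14 (1.46 to 14.3), and its log2 ratio of 0.73 was short of the rule. Contig73398 had 14 reads in FE and 2 in PE, a ratio of 8.51 (1.96 to 77.2). Contig52853, a vitellogenin with no number, had 9 reads in FE and 3 in PE, a ratio of 3.65 (0.911 to 21.0) whose interval includes 1. The last 2 did not reach 1 RPKM in a library. All 3 had more reads in FE, at levels where counting error is large.

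Summed over the 27 members the level was 8768 RPKM in FE and 23841 RPKM in PE, a ratio of 0.368. The sum follows Vitellogenin-1 and Vitellogenin-B, since the other 14 members summed to only 329 RPKM in FE and 15.7 RPKM in PE. Vitellogenin-2 made up 3.58% of the members' summed RPKM in FE and 0.0631% in PE. Summed RPKM counts a transcript once for each of its pieces, so levels summed over groups cut into different numbers of pieces are not on a common scale. By reads, Vitellogenin-1 took 0.502% of the FE library and 1.47% of the PE library, and Vitellogenin-2 took 0.0364% of the FE library and 0.00321% of the PE library. The difference in direction between the groups was not tested, for want of replicates.

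**Figure D4:**
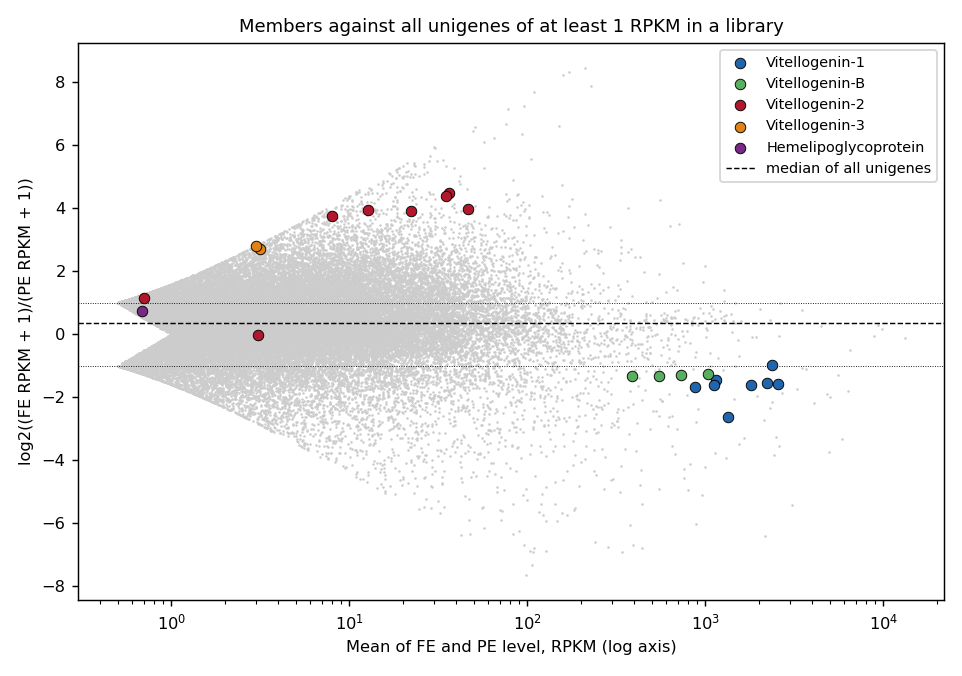
log2((FE RPKM + 1)/(PE RPKM + 1)) against the mean RPKM of both libraries (log axis) for the 44982 unigenes that reached 1 RPKM in a library (grey) and the 23 members among them (coloured by UniProt name); the dashed line is the median of all unigenes, 0.36, and the dotted lines mark the rule of size. Vitellogenin-1 and Vitellogenin-B lie at the abundant end below the median, and Vitellogenin-2 other than Contig6575 near the upper edge of the cloud, most of it at intermediate levels.

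Scaling moves every unigene alike. With a TMM factor (a trimmed mean that centres the bulk of unigenes, a shift of 0.39 on the log2 scale) 18.3% of all unigenes were called higher and 15.6% lower. The median log2 ratio over the 23 members was then -1.36. The 9 higher and 11 lower members kept their calls, and Contig757 was called lower as well.

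Other unigenes with the term for lipid transporter activity were compared as a group chosen after the members' terms were seen. The 12 that are not members had 7 lower in FE, none higher and 5 neither, where 11.1% of all unigenes were lower and 25.7% higher. Their median log2 ratio was -1.46. Of the 7, 6 had an Nr hit to the same undescribed protein of Ixodes scapularis. These 6 may be pieces of 1 transcript, so the 7 are not known to be independent observations. The most abundant of the 6, Contig14863, had 93.1 RPKM in FE and 447 RPKM in PE, a ratio of 0.208 (0.201 to 0.216). The seventh was the microsomal triglyceride transfer protein (Contig9471), which loads lipid onto nascent lipoproteins, with 96.4 RPKM in FE and 198 RPKM in PE, a ratio of 0.485 (0.476 to 0.495). It was the member of the list for lipoprotein assembly with the highest mean level and the only one of its 5 that was called. The lowest counts of that list were those of a putative lipid transfer protein (Contig55329), with 16 reads in FE and 1 in PE.

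Receptors for lipoproteins went both ways. Of 40 unigenes in the list of receptors and uptake 35 reached 1 RPKM, of which 14 were higher in FE, 7 lower and 14 neither. Over all unigenes that reached 1 RPKM, 25.7% were higher and 11.1% lower. The median log2 ratio was 0.07, and it was -0.26 with a TMM factor. The unigene of this list with the highest mean level, a low-density lipoprotein receptor by its Nr description (Contig1194), had 145 RPKM in FE and 158 RPKM in PE. On the log2(RPKM + 1) scale the extremes were an adapter protein of such receptors (Contig4221), at 38.0 RPKM in FE and 0.667 RPKM in PE with a ratio of 57.0 (39.5 to 85.4), and a low-density lipoprotein receptor (Contig16139), at 2.80 RPKM in FE and 39.9 RPKM in PE with a ratio of 0.0700 (0.0569 to 0.0853). By the plain ratio another low-density lipoprotein receptor (Contig16092), named after its values were seen, was further apart, with 183 reads in FE and 0 in PE, at least 74.2-fold higher in FE against a floor of 3 reads.

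The vitellogenin receptor takes up vitellogenin into the oocytes. First_Contig2458, so named in both annotations, had 116 RPKM in FE and 38.2 RPKM in PE, a ratio of 3.03 (2.96 to 3.10). Contig6196, so named in UniProt, had 118 RPKM in FE and 39.9 RPKM in PE, a ratio of 2.95 (2.74 to 3.17). Both were called higher in FE.

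Contig5844, so named in Nr, had 21.3 RPKM in FE and 10.7 RPKM in PE and was called neither. Another 2 unigenes carried the name in UniProt only and a granulin description in Nr. Of these, Contig28660 had 20.9 RPKM in FE and 32.8 RPKM in PE, and Contig28661 had 8.37 RPKM in FE and 14.1 RPKM in PE. Both were called neither, and lower with a TMM factor.

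An Nr description of lipophorin receptor, a receptor for the circulating lipoprotein of arthropods, was given to 6 unigenes. The 4 that reached 1 RPKM were called lower in FE, where 11.1% of all unigenes were, with ratios between 0.139 and 0.150. The most abundant, Contig2718, had 37.2 RPKM in FE and 253 RPKM in PE. UniProt named 3 of the 4 nidogen, a protein of basement membranes, so the identity of these 3 is uncertain. The other of the 4, Contig2717, was named lipophorin receptor in both annotations. It had 27.0 RPKM in FE and 190 RPKM in PE, a ratio of 0.142 (0.131 to 0.154). The 2 scarce lipophorin receptor unigenes, also so named in both annotations, did not reach 1 RPKM and had more reads in FE. Contig6525 had 26 reads in FE and 3 in PE, a ratio of 10.5 (3.23 to 54.4), and Contig38784 had 6 reads in FE and 1 in PE, a ratio of 7.30 (0.885 to 336). The 5 unigenes of scavenger receptor class B, which takes up lipids from lipoproteins, were all called higher in FE, where 25.7% of all unigenes were. Their summed level was 238 RPKM in FE and 70.6 RPKM in PE.

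**Figure D5:**
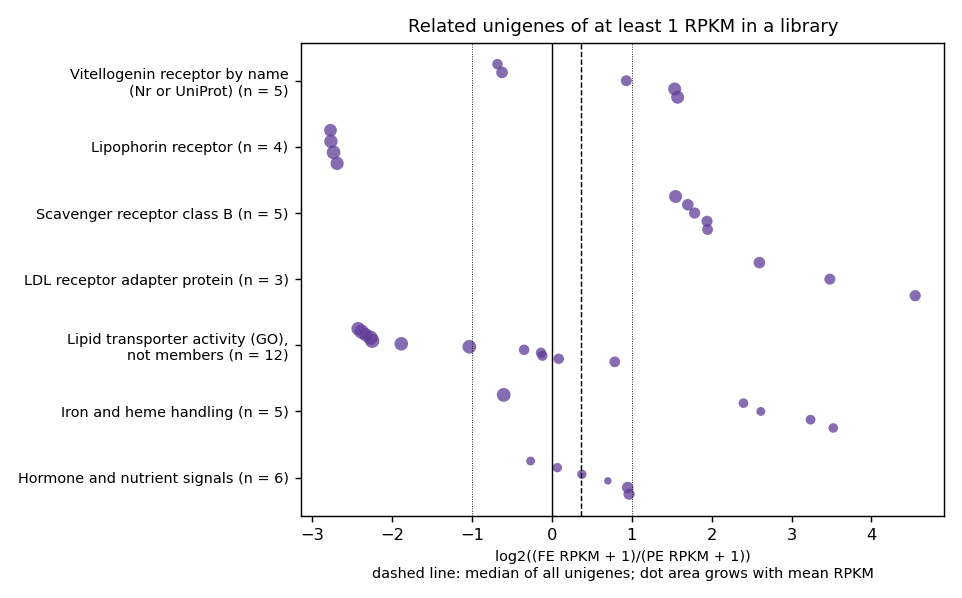
log2((FE RPKM + 1)/(PE RPKM + 1)) of related unigenes that reached 1 RPKM in a library, by group, with dot area growing with the mean RPKM; the dashed line is the median of all unigenes, 0.36, and the dotted lines mark the rule of size. The 4 lipophorin receptor unigenes that reached 1 RPKM lie near -2.75, the 5 of scavenger receptor class B between 1.55 and 1.95, and the lipid transporters are at or below 0.79.

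Iron and heme handling held 5 unigenes besides the members. Ferritin (Contig3682), the iron store and the one with the highest mean level, had 127 RPKM in FE and 193 RPKM in PE, a ratio of 0.656 (0.640 to 0.672), and was called neither. The 4 others were described as transferrin receptor, which takes up iron-loaded transferrin in vertebrates. All 4 were called higher in FE, where 25.7% of all unigenes were. Contig36952, Contig32350 and Contig5299 reached 1 RPKM only in FE, so the count is a description and is read no further. Of the 4, Contig32350 had the highest log2 ratio, with 513 reads in FE and 4 in PE, a ratio of 156 (60.6 to 575).

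Hormone and nutrient signals that act on vitellogenin genes in arthropods were not called in either direction in the 6 unigenes that reached 1 RPKM. Over all unigenes that reached 1 RPKM, 36.8% were called. The lack of calls does not mean equal levels, and some plain ratios, taken without the pseudocount, reached 2-fold. A GATA factor (Contig6220), of a family that binds vitellogenin promoters in mosquitoes, had 32.4 RPKM in FE and 16.3 RPKM in PE, with a log2 ratio of 0.95. A unigene described in Nr as the retinoid X receptor (Contig10724), which UniProt named a hepatocyte nuclear factor, had 26.1 RPKM in FE and 12.9 RPKM in PE, with a log2 ratio of 0.96. Its plain ratio was 2.03 (1.89 to 2.17). Contig25065, with the same Nr description but an estrogen-related receptor in UniProt, had 1.62 RPKM in FE and 0.616 RPKM in PE. Its plain ratio was 2.64 (1.93 to 3.64), and its log2 ratio was 0.70. Contig48522, named retinoid X receptor in both annotations, a partner of the ecdysteroid receptor, had the lowest log2 ratio, -0.27, at 3.11 RPKM in FE and 3.95 RPKM in PE.

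Markers of midgut and of other tissues were read beside these values. The 51 unigenes of the midgut list (cathepsins, legumain, peritrophins) summed to 5076 RPKM in FE and 5304 RPKM in PE. Whether these names are particular to midgut was not tested. Single midgut unigenes differed in both directions. Of the 46 that reached 1 RPKM, 16 were higher in FE, 16 lower and 14 neither, with log2 ratios from -5.92 to 4.53. For this and the following lists, the shares over all unigenes that reached 1 RPKM were 25.7% higher and 11.1% lower. Of 14 ovary and germ line unigenes, 5 of them the vitellogenin receptor unigenes above, 12 reached 1 RPKM, of which 4 were higher in FE and none lower, where 25.7% of all unigenes were higher. With a TMM factor 4 were higher and 2 lower. The 14 summed to 713 RPKM in FE and 302 RPKM in PE, and a vasa RNA helicase (Contig6016) had 205 RPKM in FE and 105 RPKM in PE. The other lists summed to 2695 RPKM in FE and 3079 RPKM in PE for muscle, and to 369 RPKM in FE and 183 RPKM in PE for nervous tissue. Of the 61 unigenes of the muscle list that reached 1 RPKM, 9 were higher in FE and 5 lower. All 5 lower ones were described in Nr as non-muscle myosin heavy chain. Among the 9 higher ones, Contig26434 and Contig26480 were named a transposable element in UniProt. The muscle list and its sum therefore hold more than muscle names. In nervous tissue 7 of 13 were higher and 0 lower, with a median log2 ratio of 1.12. Hemocyte names summed to 20.7 RPKM in FE and 12.95 RPKM in PE, and host blood names to 20.8 RPKM in FE and 10.6 RPKM in PE. Salivary gland names summed to 5764 RPKM in FE and 18241 RPKM in PE, but of the 53 that reached 1 RPKM 26 were higher in FE and 11 lower, with a median log2 ratio of 0.96. The sum was led by unigenes such as Contig2521, with 688 RPKM in FE and 9207 RPKM in PE. None of these lists was wholly at 0 in a library, and their part in the results was not tested. No fat body marker other than the members was listed.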

How the data were processed

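Counts per unigene are whole numbers and not normalized, as deposited. Beside them stand the RPKM values of the authors. The counts, lengths and RPKM imply library totals of 41432770 reads for FE and 50397332 for PE, of which the listed counts are 86.8% and 87.0%. The submitters' processing notes name CASAVA 1.8. The sources used here name no assembler, aligner, counter or strand setting. A deposited comparison by the authors gives a ratio of PE over FE RPKM, with 0 replaced by 1e-05, and for each unigene a p-value with its false discovery rate. Annotation files by the authors give the identity percent and the alignment score of each hit, per the file headers. The members and lists were chosen with earlier results of these data known.

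Ratios were computed as FE over PE, with exact (Clopper-Pearson, conditional binomial) 95% intervals from the counts and implied totals (Python 3.11.15, scipy 1.17.1). Intervals and floors cover counting error only. The rule of size, with a pseudocount of 1 RPKM and a filter of 1 RPKM in a library, was checked on simulated data. These held counting error only, with no variation between ticks or libraries. The check therefore cannot show how reliable calls from 1 library per state are. A TMM factor came from edgeR 4.0.16. No p-value was computed. Named are members that reached 10 RPKM in either library, the most abundant and the extreme ones of each group and related list; further unigenes were named after their values were seen. The annotations held 10 more matching unigenes outside the expression table, which were not analysed here. Alternatives changed the pseudocount, filter, scaling, rule and membership.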

Additional observations from a re-analysis of the deposited data

How the results depend on the processing

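No paired analysis was possible because there was 1 library per state, so leaving out a library gave no value either. Under the 14 alternatives no member's call turned to the opposite direction. Of 108 log2 ratios of single members 59 stayed close to their value, 49 moved and 0 reversed. The last 3 alternatives below were chosen after seeing the data. Except where a value shows it, the cause was not tested.

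The median log2 ratio over all members reversed to 1.93 when members were taken only by Nr description, which leaves out all Vitellogenin-B unigenes, 2 of Vitellogenin-1 and Contig61579; 5 members were then lower, and Vitellogenin-1 had a median of -1.55 and a summed ratio of 0.348. With a pseudocount of 0.1 RPKM the median was 4.64 for Vitellogenin-2 and 5.46 for Vitellogenin-3, and with 5 RPKM it was 2.59 and 1.14. The median over all members was -0.018 with no filter and -1.28 with a filter of 5 RPKM. A TMM factor gave medians of -1.36 over all members, -1.98 for Vitellogenin-1, -1.70 for Vitellogenin-B and 3.61 for Vitellogenin-2, with summed ratios of 0.280, 0.262, 0.311 and 15.9 in that order. Centring on the median of all unigenes gave -1.33, -1.95, -1.67 and 3.64, with summed ratios of 0.287, 0.268, 0.318 and 16.3.

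With a 4-fold rule 1 member was lower, that 1 in Vitellogenin-1 and 0 in Vitellogenin-B. With the false discovery rate of the authors' deposited table in place of the interval 0 Vitellogenin-3 unigenes were higher. With 1 unigene per Nr protein 3 members were higher and 7 lower, with a median of -1.26 and a summed ratio of 0.388; 4 Vitellogenin-1 unigenes were lower (summed ratio 0.374), and 3 Vitellogenin-2 unigenes higher (median 2.53, summed ratio 15.7). Among unigenes of at least 500 nucleotides the median over all members was -0.49 and the summed ratio 0.375, and 4 Vitellogenin-1 unigenes were lower (summed ratio 0.346). At a UniProt identity of at least 60% the median was -1.28 and the summed ratio 0.363, the summed ratio was 18.7 for Vitellogenin-2, and 1 Vitellogenin-3 unigene was higher (summed ratio 63.0). Without Contig6575 the median over all members was -1.12 and the summed ratio of Vitellogenin-2 was 26.1. With Contig757 and Contig758 summed the median over all members was -0.64. Contig65376 lost its call with a pseudocount or a filter of 5 RPKM, under the 4-fold rule and with the authors' false discovery rate. Contig757 gained a call with a TMM factor, with centring and when summed with Contig758, and Contig61579 gained one with a pseudocount of 0.1 RPKM. Depth limits the ratios of members with under 20 reads in a library, whose intervals are wide.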
